A study of Mus musculus with 7 samples.

Results

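The genes described here encode the proteases that cut the extracellular matrix, the inhibitors of these proteases, and the enzymes that process and crosslink collagen and elastin. They were taken by name from the table of counts. The names used were those that start with Mmp and a number, with Timp or with Adamts, together with Lox, Loxl1 to Loxl4, Plod1 to Plod3, Tgm2 and Serpinh1. Among the 20927 genes of the table, 61 had such a name. Of these, 50 had at least 10 counts in at least 3 libraries, the filter that kept 13894 genes of the whole table for testing. Each of the 50 had at least 10 counts in hearts of both genotypes, so none passed through 1 genotype alone. Of the 11 below the filter, Mmp1a, Mmp1b, Mmp7, Mmp10, Mmp20 and Mmp24 had 0 counts in all 7 hearts, which in the least deeply sequenced heart allows a level of up to 0.0907 counts per 1000000 (CPM), or 3 counts, for counting error only and more if each fragment was counted once per end. Mmp8, Mmp21, Adamts13, Adamts16 and Adamts18 had at most 10 counts in any heart.

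RNA from the left ventricle of 3 WT mice (replicates 1, 3 and 4) and 4 mice homozygous for titin A178D (replicates 1 to 4) was sequenced, with 1 library per heart. The A178D change swaps an alanine of titin, the giant spring protein of the sarcomere, for an aspartate. It was put into C57BL/6N embryonic stem cells with CRISPR-Cas9, together with a silent change that makes a restriction site, and the mice were crossed back to C57BL/6J, the strain that the labels give for both groups. WT and A178D mice were littermates, and neither group was treated. The age and sex of these 7 mice were not given in the sources used here. Ddx3y, a gene of the Y chromosome, was read in every heart, at 104, 99.4 and 118 CPM in WT and at 119, 109, 103 and 75.2 CPM in A178D. The libraries held between 33080675 and 54245530 counts. CPM values below are scaled to library sizes by TMM and listed in the order of the replicate numbers, and levels of different genes are compared only after division by the length of their exons (CPM per kb). Markers of cardiomyocytes, the muscle cells of the ventricle, summed to between 108225 and 115800 CPM per heart over 10 of 10 genes, of which Myh6 was the most abundant.

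Matrix metalloproteinases (MMPs) are zinc enzymes that cut collagens, proteoglycans and other matrix proteins, and the tissue inhibitors of metalloproteinases (TIMPs) bind their active site and block them. ADAMTS enzymes are secreted relatives that cut proteoglycans such as versican or trim procollagen, while lysyl oxidases, lysyl hydroxylases and transglutaminase stabilise the fibres that remain. In the heart this set of genes governs the turnover of the collagen network around the muscle cells, and Timp4 is known as the TIMP most typical of cardiac tissue.

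The question was how these genes differ between A178D and WT left ventricles. Of the 4 genes that passed edgeR's test 3 were inhibitors, while of the 8 called by DESeq2 2 were. Timp1 was higher in A178D hearts and Timp3 was lower. Timp4 was lower too, but its hearts overlapped and DESeq2 did not call it. Timp2 overlapped between the genotypes and was not called. Adamtsl2, for a matrix protein that resembles ADAMTS enzymes without the protease domain, was also higher. None of the 15 tested MMP genes passed the test, which only 2.35% of all tested genes passed.

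With edgeR's quasi-likelihood test and Benjamini-Hochberg adjustment over all tested genes, 2 of 50 members were called higher in A178D at an adjusted p under 0.05, against 1.04% of all tested genes. A further 2 of 50 were called lower, against 1.31% of all tested genes (in either direction 8% of members and 2.35% of genes). An unadjusted p under 0.05 was found for 17 members, 11 of them higher and 6 lower in A178D, which is 34% of the members and 16.7% of all tested genes. The hearts of the genotypes did not overlap in 14 members (28%). In 10 of them all A178D hearts were the higher ones, against 7.61% of all tested genes, and in 4 they were the lower ones, against 8.52%. The median log2 fold change was -0.05 over the members and 0.002 over all tested genes, and its median size regardless of sign was 0.21 and 0.12. DESeq2, run as an alternative, called 6 members higher (2.20% of the genes it gave an adjusted p) and 2 lower (2.85%), and gave no adjusted p for Mmp25 and Mmp27. Timp1, Timp3 and Adamtsl2 were called by both tools, Timp4 by edgeR alone, and Adamts9, Adamts12, Loxl1, Tgm2 and Adamtsl4 by DESeq2 alone. With offsets for transcript length and GC content edgeR called these 5 too, together with Adamts2, but not Timp4.

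**Figure D1:**
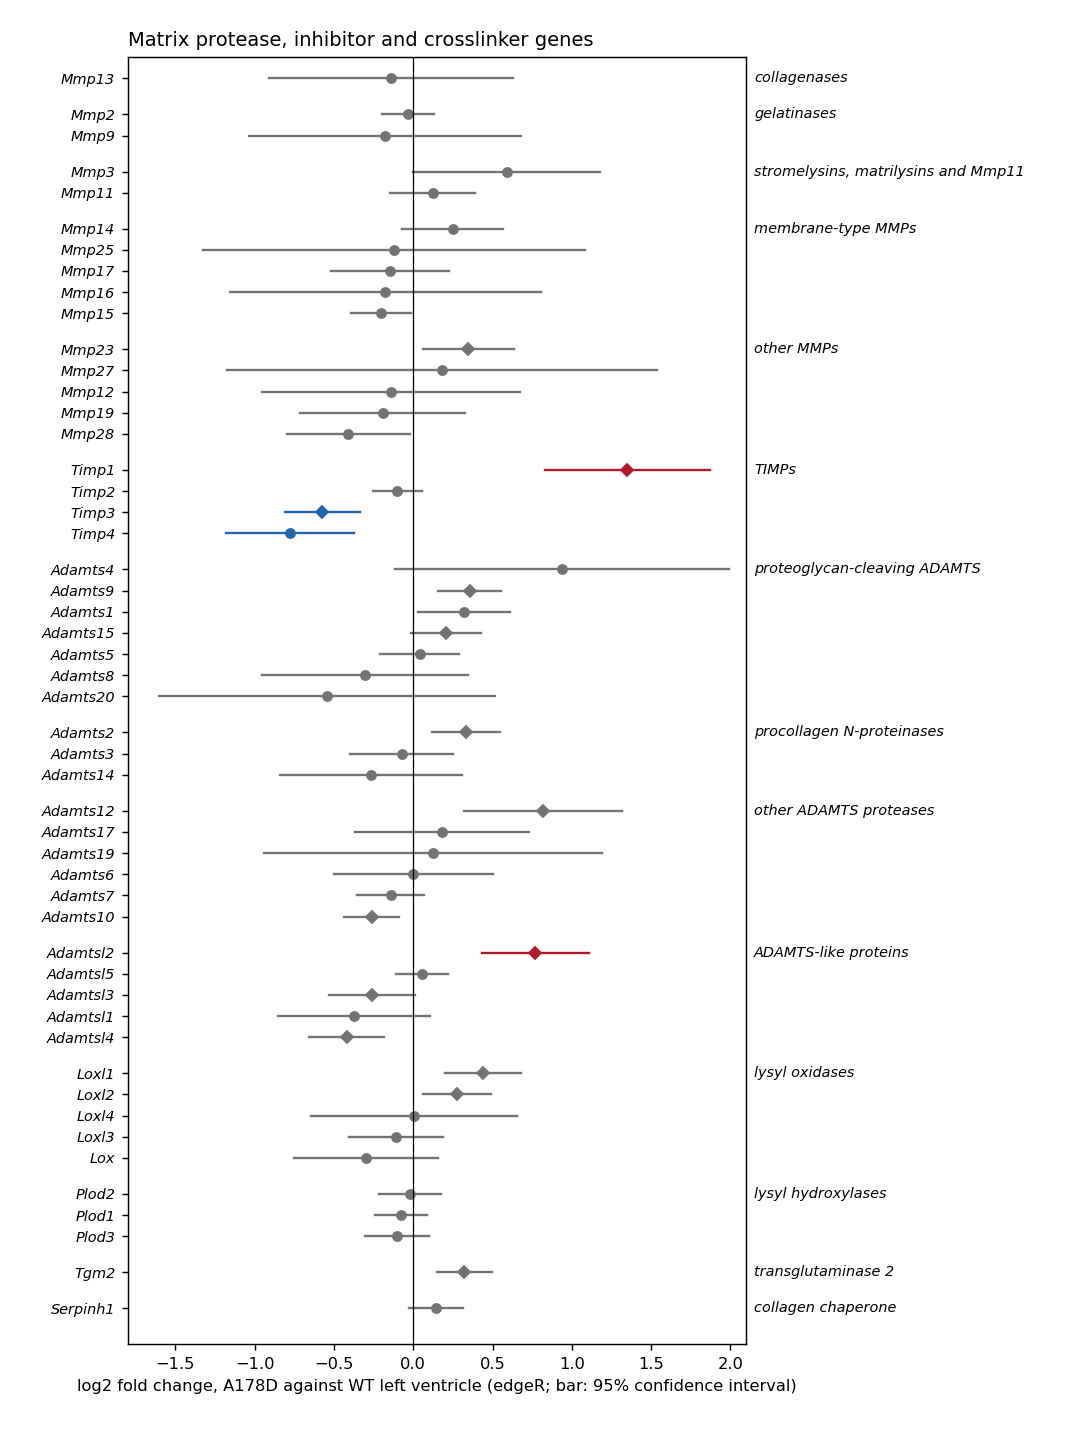
Log2 fold change of A178D against WT (horizontal axis) for the 50 tested genes, grouped by role, from edgeR with 3 WT and 4 A178D hearts. Bars are 95% confidence intervals, diamonds mark genes whose WT and A178D hearts do not overlap, and colour marks an adjusted p under 0.05 (red higher, blue lower): Timp1 at 1.35, Adamtsl2 at 0.77, Timp3 at -0.57 and Timp4 at -0.78.

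The 4 calls depended on which heart was left out, while the directions did not. The log2 fold change ranged from 1.1997 to 1.56 for Timp1, from 0.59 to 0.94 for Adamtsl2, from -0.71 to -0.48 for Timp3 and from -0.98 to -0.59 for Timp4. Without WT replicate 3 or without WT replicate 4 no member was called by edgeR, and the calls over the whole table went from 327 to 53 and 82. Without A178D replicate 1 only Timp1 was called, and the whole table held 90 calls. Without A178D replicate 2 the members called were Timp1, Timp3 and Adamtsl2, and without A178D replicate 3 they were those 3 and Tgm2. Without A178D replicate 4 there were 5, Timp1, Timp3, Timp4, Adamtsl2 and Adamts9. Without WT replicate 1, the count rose to 7 with Timp1, Timp3, Timp4, Adamtsl2, Adamtsl4, Loxl1 and Mmp14.

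Timp1 encodes a soluble inhibitor that is induced by injury and growth factor signals in many tissues. It stood at 1.48, 0.935 and 1.13 CPM in WT hearts and at 2.26, 3.68, 3.05 and 3.09 CPM in A178D hearts. The groups did not overlap, and A178D replicate 1 was the lowest of its group. The means were 1.18 ± 0.278 CPM (SD, n = 3) in WT and 3.02 ± 0.585 CPM (SD, n = 4) in A178D, a ratio of 2.55. In the edgeR fit this was a log2 fold change of 1.35 ± 0.24 (SE), with a 95% confidence interval from 0.83 to 1.87 and an adjusted p of 0.0130 by edgeR and 5.18e-05 by DESeq2. The gene was read at a low level, from 46 to 194 counts per heart. Leaving out WT replicate 3 gave an adjusted p of 0.0849 and leaving out WT replicate 4 gave 0.0662, whereas leaving out any of the other hearts gave between 0.00638 and 0.0386.

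Timp3 encodes the TIMP that binds to the matrix itself and also blocks ADAM and ADAMTS enzymes. Its level was 355, 475 and 499 CPM in WT hearts and 279.6, 266, 336 and 308 CPM in A178D hearts. All 4 A178D hearts lay below all 3 WT hearts, although WT replicate 1 came close to A178D replicate 3. The group means were 443 ± 77.3 CPM (SD, n = 3) and 297 ± 31.2 CPM (SD, n = 4), or 0.671 of the WT level. This corresponds to a log2 fold change of -0.57 ± 0.11 (SE; 95% confidence interval -0.81 to -0.34), with an adjusted p of 0.0168 by edgeR and 5.18e-05 by DESeq2. The call by edgeR was lost when WT replicate 3 (adjusted p = 0.110), WT replicate 4 (0.0980) or A178D replicate 1 (0.0640) was left out.

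Timp4, the inhibitor typical of heart tissue, stood at 30.7, 55.2 and 47.9 CPM in WT and at 23.6, 19.8, 26.4 and 34.7 CPM in A178D hearts. Here the groups overlapped, since A178D replicate 4 was above WT replicate 1. The mean fell from 44.6 ± 12.6 CPM (SD, n = 3) to 26.1 ± 6.34 CPM (SD, n = 4), with a log2 fold change of -0.78 ± 0.19 (SE) and an adjusted p of 0.0475 by edgeR. DESeq2 did not call it (adjusted p = 0.0931), nor did limma-voom (0.0511) or edgeR with offsets for transcript length and GC content (0.0877). With all hearts it stayed called by edgeR with no filter on low counts (0.0133). Of the fits with a heart left out, those without WT replicate 1 and without A178D replicate 4 called it, with an adjusted p of 0.00399 and 0.0151, and without the other hearts its adjusted p lay between 0.100 and 0.241.

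Timp2, which besides blocking MMPs takes part in the activation of pro-Mmp2 by Mmp14 at the cell surface, was nearly the same in all hearts. Its level was 127, 144 and 121 CPM in WT and 123, 120.2, 120.1 and 123 CPM in A178D. Only WT replicate 3 stood above the rest. Its log2 fold change was -0.10 ± 0.07 (SE), with a 95% confidence interval from -0.26 to 0.05.

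Per kb of exon, Timp3 and Timp2 made up most of the TIMP transcripts in every heart. The 4 genes summed to 82.9, 106 and 102 CPM per kb in WT and to 72.5, 71.0, 80.0 and 78.7 CPM per kb in A178D hearts, so that all A178D sums lay below all WT sums. Timp3 gave 52.5, 55.2 and 60.2% of this sum in WT hearts and 47.4, 46.0, 51.6 and 48.1% in A178D hearts. The share of Timp1 was 2.02, 0.997 and 1.25% in WT and 3.50, 5.84, 4.28 and 4.42% in A178D. Neither share overlapped between the genotypes, whereas that of Timp4 did, at 6.28 to 8.87% in WT and 4.74 to 7.49% in A178D. Timp3 exceeded Timp1 by a factor of 26.1 to 55.4 in WT hearts and of 7.88 to 13.5 in A178D hearts. These shares and sums are given as descriptions, without a test.

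**Figure D2:**
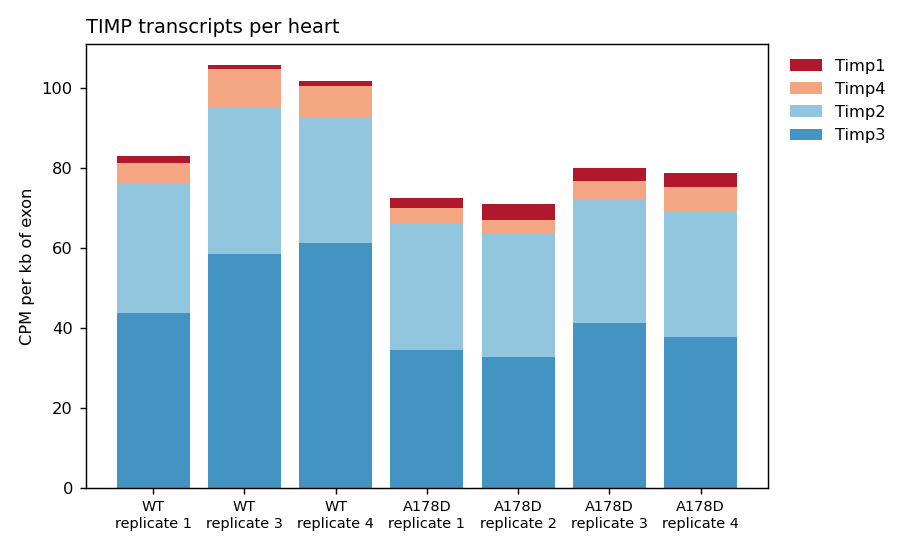
Level of the 4 TIMP genes in each heart, in CPM per kb of exon (vertical axis), stacked per library. The sum lay between 82.9 and 106 in the 3 WT hearts and between 71.0 and 80.0 in the 4 A178D hearts, with Timp3 the largest part in each heart.

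The TIMP genes called here share an arrangement in the genome. Timp1 (ENSMUSG00000001131, chrX:20870166-20874735, plus strand), Timp3 (ENSMUSG00000020044, chr10:86300372-86349506, plus strand) and Timp4 (ENSMUSG00000030317, chr6:115241892-115252205, minus strand) each lie within a synapsin gene on the opposite strand in GRCm38, namely Syn1, Syn3 and Syn2. Timp2 lies on chromosome 11, apart from any synapsin gene. The exons of Timp1 share 0 bases with Syn1, those of Timp3 share 1733 bases (21.3% of its exon length) with Syn3, and those of Timp4 share 90 bases (1.53%) with Syn2. Syn1 was read at no more than 0.520 CPM in any heart and Syn3 at no more than 4.58 CPM. Syn2, a synaptic vesicle gene, stood at 3.54, 3.34 and 3.03 CPM in WT and at 5.16, 6.26, 5.53 and 5.53 CPM in A178D hearts. It was thus higher in every A178D heart (log2 fold change 0.77, adjusted p = 0.0162 by edgeR), opposite in direction to the Timp4 that it contains. Libraries were strand-specific, but whether the counting used the strand was not given in the sources used here, so that reads of overlapping genes on opposite strands may have been shared.

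**Figure D3:**
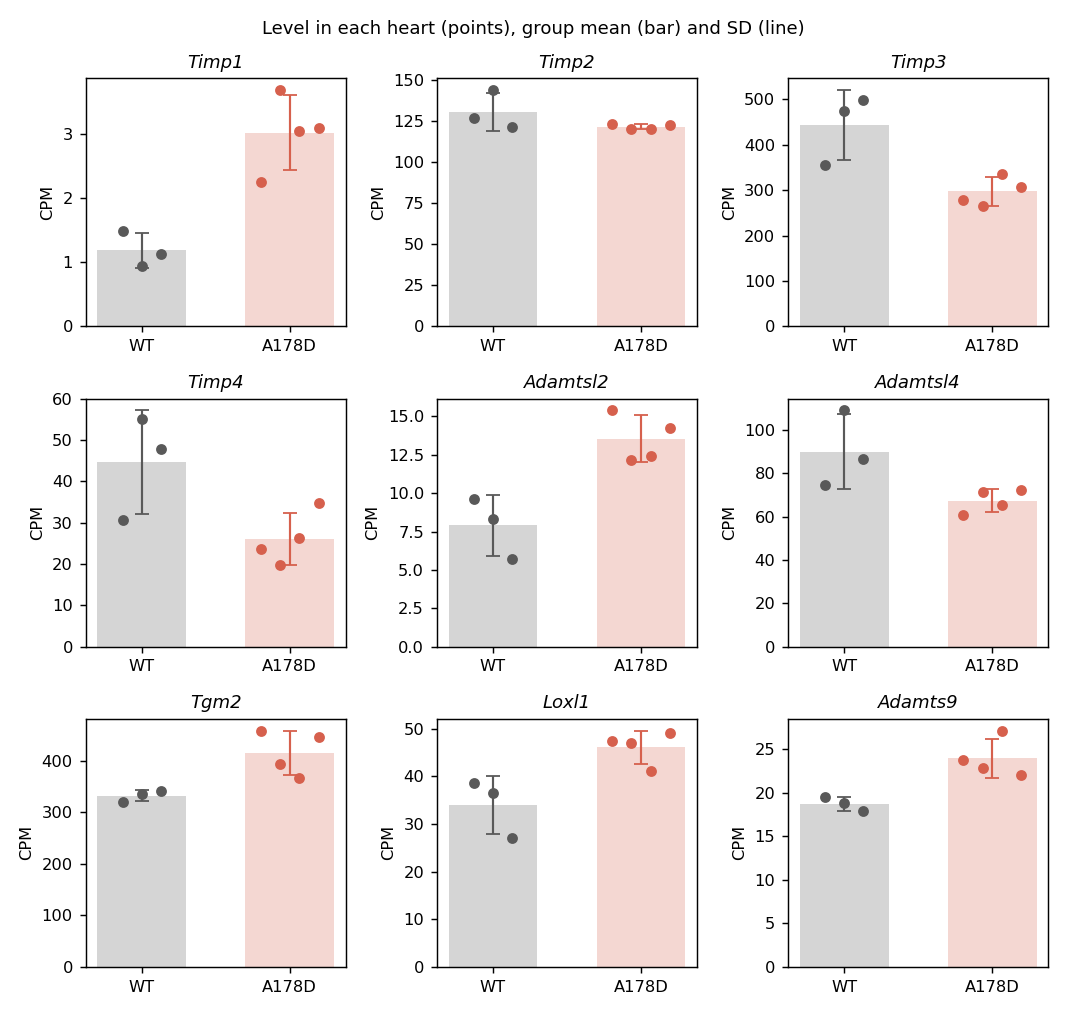
CPM (vertical axis, from 0) of 9 genes in each of 3 WT and 4 A178D hearts. Points are hearts, bars are group means and lines are the SD. WT and A178D hearts overlap for Timp2 and Timp4 and lie apart for the other genes shown.

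Smooth muscle markers were lower in A178D hearts as well. Of 8 of 8 tested smooth muscle markers 6 were called lower in A178D (Myh11, Acta2, Tagln, Cnn1, Lmod1 and Mylk) and none higher, with a median log2 fold change of -0.61. Their summed level was 763, 759.6 and 717 CPM in WT hearts and 486, 573, 591 and 568 CPM in A178D hearts, with Smtn the most abundant and no marker at 0. All 7 of 7 pericyte markers had a negative log2 fold change (median -0.28), none was called by edgeR, 4 had an unadjusted p under 0.05 and 3 were called by DESeq2. They summed to 1108, 1134 and 1083 CPM in WT and to 944, 994, 1057 and 823 CPM in A178D, with Abcc9 the most abundant and no marker at 0. In RNA from whole tissue, fewer cells of a type and less RNA per cell cannot be told apart. The part of these cells in the levels of Timp3 and Timp4 was not tested.

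The MMP genes were described by the matrix they cut and by where they act. Of the collagenases, which open the collagen triple helix, only Mmp13 passed the filter, at 1.38 ± 0.601 CPM (SD, n = 3) in WT and 1.25 ± 0.484 CPM (SD, n = 4) in A178D. The gelatinases, which cut denatured collagen and basement membrane, had unequal levels, 19.3 CPM per kb for Mmp2 and 0.232 CPM per kb for Mmp9 over all hearts. Mmp2 stood at 65.7, 72.0 and 59.7 CPM in WT and at 63.7, 66.6, 65.0 and 62.0 CPM in A178D hearts. The A178D hearts lay within the range of the WT hearts, and the log2 fold change was -0.03 ± 0.08 (SE; 95% confidence interval -0.20 to 0.13). For Mmp9, with 16 to 74 counts per heart, the interval ran from -1.03 to 0.68, too wide to show a difference of moderate size.

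The membrane-type enzyme Mmp15 was the most abundant MMP, at 24.9 CPM per kb. Its level was 156, 155 and 124 CPM in WT hearts and 113, 131, 131 and 129.9 CPM in A178D hearts. WT replicate 4 lay below most of the A178D hearts, so that the groups overlapped. The log2 fold change was -0.20 ± 0.09 (SE), with an adjusted p of 0.265 by edgeR and 0.233 by DESeq2. Mmp14, the membrane-type enzyme that activates pro-Mmp2, averaged 12.6 ± 3.49 CPM (SD, n = 3) in WT and 14.98 ± 1.11 CPM (SD, n = 4) in A178D, and was called only without WT replicate 1, the WT heart in which it was highest. Mmp16, Mmp17 and Mmp25 had log2 fold changes between -0.18 and -0.12, with none called.

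Mmp23, a membrane-bound enzyme that is released by cleavage, was the only MMP whose genotypes did not overlap. It stood at 6.72, 6.64 and 5.05 CPM in WT and at 7.44, 7.34, 8.18 and 8.34 CPM in A178D hearts, with a log2 fold change of 0.35 ± 0.13 (SE) and an adjusted p of 0.213 by edgeR. The stromelysin Mmp3 averaged 2.26 ± 0.998 CPM (SD, n = 3) in WT and 3.42 ± 0.811 CPM (SD, n = 4) in A178D, and Mmp28 averaged 5.14 ± 1.09 and 3.87 ± 0.602 CPM. Both overlapped between the genotypes, with adjusted p values of 0.298 and 0.271 by edgeR. Across the 15 tested MMP genes 5 log2 fold changes were above 0 and 10 below, and the median was -0.14. None was called by edgeR (2.35% of all tested genes) or DESeq2, while 4 had an unadjusted p under 0.05 (16.7% of all tested genes).

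A cluster of MMP genes at chr9:7272514-7699585 held 10 of the 23 MMP names, and 5 of these 10 had 0 counts in every heart. The 4 that were tested, Mmp3, Mmp12, Mmp13 and Mmp27, were all read at under 5 CPM in each heart. Summed over all 23 names, MMP transcripts came to 61.4, 62.6 and 50.6 CPM per kb in WT and to 53.6, 57.0, 56.7 and 55.03 CPM per kb in A178D hearts, and Mmp15 and Mmp2 gave most of it. The groups overlapped, with WT replicate 4 the lowest of all. The ratio of the MMP sum to the TIMP sum was 0.740, 0.592 and 0.497 in WT hearts and 0.739, 0.802, 0.709 and 0.6996 in A178D hearts. WT replicate 1 lay among the A178D hearts in this ratio, above 3 of the 4.

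Of the 7 ADAMTS enzymes that cut proteoglycans, none was called by edgeR, 2 had an unadjusted p under 0.05, and Adamts9 was called by DESeq2. Adamts9, a protease for versican, was read at 19.4, 18.8 and 17.9 CPM in WT hearts and at 23.8, 22.8, 27.1 and 22.0 CPM in A178D hearts. All A178D hearts lay above all WT hearts, and A178D replicate 3 was the highest. The log2 fold change was 0.35 ± 0.09 (SE), with an adjusted p of 0.0684 by edgeR and 0.0185 by DESeq2, and by edgeR from 0.0387 without A178D replicate 4 to 0.218 without WT replicate 4. Adamts15 was separate too, at 8.71, 8.57 and 8.56 CPM in WT and at 9.64, 10.7, 9.68 and 9.76 CPM in A178D. Its difference was small (log2 fold change 0.21 ± 0.10, SE), with an adjusted p of 0.334 by edgeR.

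Adamts1, which also cuts versican, was the most abundant of these enzymes at 10.1 CPM per kb. It averaged 46.6 ± 1.69 CPM (SD, n = 3) in WT and 58.3 ± 12.96 CPM (SD, n = 4) in A178D, where the hearts spread far more widely, from 43.3 to 73.1 CPM. Its adjusted p was 0.251 by edgeR. Adamts5, the neighbour of Adamts1 on chromosome 16, differed little, with 30.05 ± 4.17 CPM (SD, n = 3) in WT and 30.9 ± 4.30 CPM (SD, n = 4) in A178D. Adamts4 had the largest log2 fold change of the ADAMTS genes (0.94), but it was read at 10 to 47 counts per heart and the 95% confidence interval ran from -0.12 to 1.99. Adamts8 and Adamts20 had values under 2 CPM in each heart and overlapped between the genotypes.

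Among the procollagen N-proteinases, which remove the amino-terminal propeptide before collagen assembles into fibres, Adamts2 did not overlap between the genotypes. Its values were 14.2, 16.2 and 12.6 CPM in WT and 18.4, 18.6, 17.3 and 18.0 CPM in A178D hearts. WT replicate 3 came closest to the A178D hearts. Its log2 fold change was 0.33 ± 0.10 (SE), with an adjusted p of 0.110 by edgeR and 0.0549 by DESeq2, and 0.0295 by edgeR with offsets for length and GC content. Adamts3 and Adamts14 overlapped, with log2 fold changes of -0.07 and -0.27 and intervals that span 0.

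Adamts12, an enzyme that cuts cartilage oligomeric matrix protein (COMP), was read at 1.10, 1.05 and 1.08 CPM in WT hearts and at 1.73, 1.94, 2.13 and 1.79 CPM in A178D hearts. The WT hearts were nearly alike and all below the A178D hearts, at 44 to 102 counts per heart. The log2 fold change was 0.82 ± 0.23 (SE), with an adjusted p of 0.0866 by edgeR and 0.0435 by DESeq2. Comp itself, read at 1.98 ± 0.812 CPM (SD, n = 3) in WT and 3.58 ± 0.272 CPM (SD, n = 4) in A178D, also had no overlap, with an adjusted p of 0.104 by edgeR and 0.0314 by DESeq2.

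Adamts10, which binds fibrillin microfibrils, went the other way. It stood at 39.5, 41.9 and 38.3 CPM in WT and at 33.95, 34.2, 30.01 and 35.1 CPM in A178D hearts, so that each A178D heart lay below each WT heart. Its log2 fold change was -0.26 ± 0.08 (SE), with an adjusted p of 0.112 by edgeR and 0.0557 by DESeq2. The other 4 of this group, Adamts6, Adamts7, Adamts17 and Adamts19, overlapped between the genotypes, and their log2 fold changes lay between -0.14 and 0.18.

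ADAMTS-like proteins lack the protease domain, and several of them bind fibrillin microfibrils. Adamtsl2 (ENSMUSG00000036040, chr2:27079379-27108981, plus strand), which binds fibrillin and a latent TGF-beta binding protein, stood at 9.63, 8.35 and 5.73 CPM in WT and at 15.4, 12.1, 12.4 and 14.2 CPM in A178D hearts. No A178D heart came below the highest WT heart, and WT replicate 4 was the lowest of all. Means were 7.90 ± 1.98 CPM (SD, n = 3) and 13.5 ± 1.54 CPM (SD, n = 4), a ratio of 1.71. In the fit the log2 fold change was 0.77 ± 0.16 (SE; 95% confidence interval 0.43 to 1.11), with an adjusted p of 0.0208 by edgeR and 0.000260 by DESeq2. Here too the call by edgeR was lost when WT replicate 3 (adjusted p = 0.0972), WT replicate 4 (0.0812) or A178D replicate 1 (0.0795) was left out, with log2 fold changes of 0.81, 0.59 and 0.70. Adamtsl2 lies 49.6 Mb from Ttn on the same chromosome, which also holds Tgm2, at 81.1 Mb from Ttn, and Mmp9, at 88.0 Mb. Whether DNA of the C57BL/6N stem cells persists around any of these genes was not tested.

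Adamtsl4, which is linked to microfibrils of the eye and is read in many tissues, was lower. Its level was 74.6, 109 and 86.6 CPM in WT hearts and 60.8, 71.2, 65.4 and 72.2 CPM in A178D hearts. WT replicate 1 was only a little above the highest A178D heart, and WT replicate 3 was far above the rest. The log2 fold change was -0.42 ± 0.11 (SE), with an adjusted p of 0.0674 by edgeR, 0.0108 by DESeq2 and 0.0101 by edgeR without WT replicate 1. Without WT replicate 3 the log2 fold change was -0.26, with an adjusted p of 0.293 by edgeR. Adamtsl5 was the most abundant of the ADAMTS-like genes per kb (21.2 CPM per kb), at 107, 97.3 and 89.6 CPM in WT and 108, 103, 98.0 and 98.1 CPM in A178D. These overlapped, with a log2 fold change of 0.06 ± 0.08 (SE). Adamtsl3 was read at 10.9, 10.9 and 10.8 CPM in WT and at 9.12, 9.22, 10.6 and 7.16 CPM in A178D hearts, all of the latter lower, with an adjusted p of 0.322 by edgeR. Adamtsl1 overlapped (5.04 ± 1.64 CPM, SD, n = 3, against 3.87 ± 0.893 CPM, SD, n = 4).

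Among the crosslinking enzymes, transglutaminase 2 and the lysyl oxidases Loxl1 and Loxl2 lay higher in every A178D heart than in any WT heart, but none of them passed edgeR's test as first run. With offsets for length and GC content edgeR called Tgm2 (adjusted p = 0.0439) and Loxl1 (0.0269), as it did with no filter on low counts (0.0370 and 0.0328). Tgm2, which joins proteins through glutamine and lysine side chains, had the highest level of all 50 genes, 82.4 CPM per kb. It was read at 319.8, 336 and 341 CPM in WT and at 457, 393, 366 and 445 CPM in A178D hearts. The WT hearts were close together and the A178D hearts spread widely above them. Its exons share 370 bases (8.03%) with those of Rprd1b on the other strand, which was read at a mean of 44.0 CPM, and 633 bases (13.7%) with those of Gm20412, also on the other strand. Its log2 fold change was 0.32 ± 0.08 (SE; 95% confidence interval 0.15 to 0.50), with an adjusted p of 0.0591 by edgeR and 0.00652 by DESeq2, and by edgeR from 0.0431 without A178D replicate 3 to 0.192 without WT replicate 3. Tgm2 is also made by endothelium, whose 10 of 10 tested markers had a median log2 fold change of 0.06 with none called by edgeR, 1 by DESeq2 and 1 with an unadjusted p under 0.05.

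Loxl1, the lysyl oxidase needed for elastic fibres, stood at 38.5, 36.5 and 27.0 CPM in WT and at 47.4, 47.0, 41.2 and 49.1 CPM in A178D hearts. WT replicate 4 was well below the other hearts of its group. The log2 fold change was 0.44 ± 0.11 (SE; 95% confidence interval 0.20 to 0.68), with an adjusted p of 0.0611 by edgeR and 0.00780 by DESeq2, and by edgeR from 0.0227 without WT replicate 1 to 0.189 without WT replicate 4. Loxl2, which acts on type IV collagen, was read at 16.2, 14.9 and 12.8 CPM in WT and at 18.6, 17.8, 17.8 and 17.0 CPM in A178D hearts. The gap between the genotypes was narrow, and the adjusted p was 0.177 by edgeR. Lox, the founding member of the family, had a level of 2.92 ± 0.314 CPM (SD, n = 3) in WT and 2.35 ± 0.553 CPM (SD, n = 4) in A178D. Lox, Loxl3 and Loxl4 overlapped between the genotypes, with log2 fold changes from -0.30 to 0.00. Summed per kb, the 5 lysyl oxidase genes came to 17.1, 16.3 and 12.8 CPM per kb in WT and to 20.3, 19.9, 17.9 and 19.7 CPM per kb in A178D hearts, and Loxl1 alone made up most of that.

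The members that act on procollagen inside the cell, Plod1 to Plod3 and Serpinh1, overlapped between the genotypes. None of them was called by edgeR or DESeq2. Plod1, a lysyl hydroxylase, was read at 124, 141 and 121 CPM in WT and 118, 117, 121 and 133 CPM in A178D. Serpinh1, the chaperone of procollagen also called Hsp47, was second only to Tgm2 per kb (71.2 CPM per kb), at 175, 168 and 150.0 CPM in WT and 188, 177, 165 and 195 CPM in A178D. Their log2 fold changes were -0.08 ± 0.08 (SE) for Plod1 and 0.14 ± 0.08 (SE) for Serpinh1. Plod2 and Plod3 had log2 fold changes of -0.02 and -0.10. For the 3 Plod genes the 95% confidence intervals lay between -0.30 and 0.17.

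The collagens on which these enzymes act were compared in the same way. Of 9 fibrillar collagen genes 7 were tested, and Col3a1 was called higher by edgeR. It stood at 248, 213 and 141 CPM in WT and at 303, 324, 305 and 306 CPM in A178D hearts, with all A178D hearts above all WT hearts, and had a log2 fold change of 0.62 ± 0.14 (SE) and an adjusted p of 0.0317 by edgeR. DESeq2 called 3, Col3a1, Col1a1 and Col5a2. All 7 had an unadjusted p under 0.05, 6 of them higher and Col11a2 lower, with a median log2 fold change of 0.37. WT replicate 4 had the lowest summed level, 393 CPM against 612 and 551 CPM in the other WT hearts and 704, 747, 676 and 708 CPM in A178D. It was also the lowest WT heart for Loxl1, Loxl2, Adamts2, Adamtsl2 and Mmp14.

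Of the 17 elastic fibre and microfibril genes, Emilin1, a glycoprotein of elastic fibres, was called higher. Its values were 38.5, 32.4 and 27.5 CPM in WT and 45.5, 47.7, 43.3 and 46.5 CPM in A178D hearts, again without overlap (adjusted p = 0.0263 by edgeR). The list as a whole was mixed, with 4 genes called by DESeq2, 7 at an unadjusted p under 0.05, 9 log2 fold changes above 0 and 8 below, a median of 0.03, and Ltbp4 the most abundant. Of the 19 tested proteoglycan and glycoprotein substrates, led by Hspg2, none was called by edgeR, 1 by DESeq2 and 4 had an unadjusted p under 0.05. Of 23 further enzymes for procollagen and crosslinks, led by P4hb, none was called by edgeR, 1 by DESeq2 and 2 had an unadjusted p under 0.05. The gene called by DESeq2 was P4ha1, which was higher in every A178D heart than in any WT heart. Its log2 fold change was 0.36, with an adjusted p of 0.0516 by edgeR and 0.00703 by DESeq2.

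Other protease systems held few calls. Among 9 tested inhibitors of other classes, led by Cst3, Tfpi was called lower. This inhibitor of coagulation was read at 88.8, 127 and 129 CPM in WT and at 78.0, 82.5, 77.8 and 67.4 CPM in A178D hearts, with WT replicate 1 nearest to the A178D hearts (adjusted p = 0.0177 by edgeR). Of 11 tested membrane ADAM genes, led by Adam15, Adam22, which lacks the catalytic site of the proteases, was called lower, at 17.0, 21.5 and 26.9 CPM in WT and 14.1, 14.6, 14.01 and 11.6 CPM in A178D (adjusted p = 0.0208 by edgeR). Of 18 tested cathepsins and serine proteases, led by Ctsd, none was called by edgeR, 1 by DESeq2 and 2 had an unadjusted p under 0.05.

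Cells that make these proteins were followed through their markers. The 12 of 12 tested fibroblast markers had a median log2 fold change of 0.11, with none called by edgeR, 1 by DESeq2 and 3 with an unadjusted p under 0.05. They summed to 2382, 2709 and 2332 CPM in WT and to 2732, 2620, 2539 and 2689 CPM in A178D hearts, which overlapped, with Gsn the most abundant and none at 0. Macrophage markers (10 of 10 tested) had a median of 0.20, with none called by edgeR, 1 by DESeq2 and 5 with an unadjusted p under 0.05, of which Cd163 and Lyve1 were lower and Adgre1, C1qa and C1qb higher. Their sums were 236, 319 and 277 CPM in WT and 304, 317, 279 and 311 CPM in A178D, with Csf1r the most abundant. Neutrophils, a source of Mmp8 and Mmp9, were nearly absent by their markers, of which 3 of 8 were tested, Ly6g and Ngp were at 0, and the sum was under 5 CPM in each heart. The part of these cells in the levels of Timp1 and the other genes above was not tested.

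Promoter sequence is shown for the 4 genes called by edgeR, since Timp3 and Timp4 moved together and Timp1 and Adamtsl2 moved the other way. RefSeq promoter entries (GRCm38.p6) were matched for all 4. Each run is 200 bases long, from 250 to 51 bases before the RefSeq start, written 5′ to 3′ on the strand of the gene, and lies at chrX:20869916-20870115 for Timp1, chr10:86300162-86300361 for Timp3, chr6:115252256-115252455 for Timp4 (minus strand) and chr2:27079129-27079328 for Adamtsl2. Capitals mark the SP1 motif.
Timp1: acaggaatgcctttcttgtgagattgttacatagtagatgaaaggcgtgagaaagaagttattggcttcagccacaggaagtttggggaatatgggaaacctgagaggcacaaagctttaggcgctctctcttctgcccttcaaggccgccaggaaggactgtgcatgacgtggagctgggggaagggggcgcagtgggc
Timp3: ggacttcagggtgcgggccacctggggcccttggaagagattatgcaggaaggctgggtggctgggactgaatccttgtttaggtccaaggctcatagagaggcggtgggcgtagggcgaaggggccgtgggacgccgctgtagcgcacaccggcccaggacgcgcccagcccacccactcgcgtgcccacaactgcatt
Timp4: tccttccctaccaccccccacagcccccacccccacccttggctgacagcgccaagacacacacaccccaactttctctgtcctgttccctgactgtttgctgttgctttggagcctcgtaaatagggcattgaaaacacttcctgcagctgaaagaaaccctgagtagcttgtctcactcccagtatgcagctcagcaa
Adamtsl2: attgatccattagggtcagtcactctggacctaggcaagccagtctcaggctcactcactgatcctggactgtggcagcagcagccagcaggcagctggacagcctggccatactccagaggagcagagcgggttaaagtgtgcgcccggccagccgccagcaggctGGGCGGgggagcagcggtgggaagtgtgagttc
The share of G and C was 52.5% for Timp1, 65.5% for Timp3, 54.5% for Timp4 and 62.5% for Adamtsl2. Both strands were searched for the AP-1 motif TGANTCA, the SP1 motif GGGCGG, the SMAD element CAGAC, the TATA box TATAAA and the CArG box, which serum response factor binds in smooth muscle genes. Among 32851 windows of the same length these letters occur in 5.57, 24.6, 35.8, 9.14 and 1.16%. Adamtsl2 had 1 SP1 motif, and the windows of Timp1, Timp3 and Timp4 held none of the 5. The 50 bases between each window and the start were not searched, so a TATA box there would not have been found. A motif is a description of the letters and not a site of binding.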

How the data were processed

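RNA sequencing libraries from left ventricles of 3 WT and 4 A178D mice, prepared with a stranded poly(A) kit and read as pairs, were compared by genotype. The authors deposited a table of raw counts per gene. A second table of size-factor scaled values was not used here. The submitters' processing notes name bcl2fastq 2.18.0.12, HISAT2 2.1.0, SAMtools 1.6, DESeq2 1.26.0 and GRCm38, while the counting program and its strand setting were not given in the sources used here. Odd numbers made up only 17.6 to 20.3% of counts from 1 to 20, so that most fragments may have been counted once per end.

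Ensembl identifiers were matched to GENCODE M21 names, and all but 300 of 21257 entries had one. Entries with at least 30 counts in total that repeat the counts of another entry were kept once (442 entries in 219 sets), as were entries below that total that repeat both identifier and counts, which left 20927. Of these, 37 repeat an identifier with other counts. The test was edgeR 4.0.16 in R 4.3.3 (TMM, glmQLFit, glmQLFTest, no covariate, at least 10 counts in at least 3 libraries, Benjamini-Hochberg adjusted p under 0.05, two-sided), a method tested on simulated data as well. Libraries held 33080675 to 54245530 counts. The intervals are for the log2 fold change between the groups, and their quasi-likelihood standard error takes in the variation between hearts. Exon length is the union of annotated exons.

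Named with a value in every heart were members called by edgeR or DESeq2, members without overlap between genotypes, and the 10 with the highest level per kb. Of the other lists reported, called genes and the most abundant gene were named, and some lists are not reported here. Comp, Col1a1, Col5a2, Col11a2, P4ha1, Nfatc1, Npr3, Ttn, the macrophage markers given by direction and the genes that overlap members fell outside that rule. All of these were chosen after their values were seen, as were the motifs searched. The members and the lists were chosen with earlier results of these data known. Alternatives were DESeq2 1.42.0, its size factors in edgeR, limma-voom (limma 3.58.1), no filter, 10 counts in every library, an adjusted p under 0.01, a block for replicate number, offsets for transcript length and GC content (mgcv 1.9.3), both together, the table as deposited, counts divided by 2 and rounded up, and each library left out.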

Additional observations from a re-analysis of the deposited data

Results flagged for a closer look

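The 4 A178D hearts were searched for a heart that stands apart from the other 3 in 21 genes whose values are given per heart, by the gap to the nearest heart relative to the range. Chance alone gives about 1 such group in 20. Mmp15 was 112.8 CPM in A178D replicate 1, below the 129.9 to 131 CPM of the other A178D hearts, and Adamts15 was 10.66 CPM in A178D replicate 2, above the 9.64 to 9.76 CPM of the others. Groups of 3 WT hearts are too small for this search.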

How the results depend on the processing

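The direction of each of the 15 members that were called by either tool or did not overlap between the genotypes held under all alternatives. Of 270 such values 226 stayed on the same side of the threshold, 21 no longer passed it and 23 newly passed it. The count of members called higher by edgeR (2) was 6 with DESeq2, 4 with no filter on low counts, 7 with offsets for length and GC content and 0 at an adjusted p under 0.01. The count called lower (2) was 1 with limma-voom, which lost Timp4, and 0 at an adjusted p under 0.01. Leaving out each heart in turn gave 0 to 4 called higher and 0 to 3 called lower, and a median log2 fold change of the members between -0.0929 (WT replicate 4 left out) and 0.0442 (A178D replicate 4 left out). The cause of these differences was not tested. After subtraction of group means the correlations of same-numbered hearts were 0.003, -0.040 and -0.042, and no WT heart correlated best with its own number. Whether the replicate numbers mark a shared litter or day was not tested. With the number as a replicate block, 2 members were called higher and 3 lower, and the whole table held 271 calls. With the block and the offsets together it was 4 higher and 3 lower, and Timp1 was not called (adjusted p = 0.0722 by edgeR). Depth limits members read at few counts, such as Mmp27 with a 95% confidence interval of the log2 fold change from -1.18 to 1.54.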

Other observations

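Of 5 markers of endocardium and valve 4 were tested, and Plvap, a protein of fenestrated endothelium, was called higher in A178D hearts. It stood at 8.26, 6.93 and 6.28 CPM in WT and at 12.4, 12.5, 11.97 and 10.2 CPM in A178D hearts, without overlap (adjusted p = 0.0113 by edgeR). The 4 were divided, with 2 log2 fold changes above 0 and 2 below and a median of 0.20. DESeq2 called 2 of them, and 3 had an unadjusted p under 0.05. Npr3 was also above 0 (log2 fold change 0.47), and its hearts overlapped between the genotypes. Its adjusted p was 0.131 by edgeR and 0.0434 by DESeq2. Nfatc1 was lower in every A178D heart (log2 fold change -0.27) without a call, and Prox1, the most abundant, stood at -0.06. Of the 10 cardiomyocyte markers, Mybpc3 was called higher, at 5872, 5707 and 5239 CPM in WT and 6952, 6832, 6677 and 7209 CPM in A178D hearts (adjusted p = 0.0230 by edgeR). The list as a whole did not rise, with 4 log2 fold changes above 0, 6 below and a median of -0.02. Myh6 was lower in every A178D heart (log2 fold change -0.11) and Ttn had a log2 fold change of -0.27, neither of them called.

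Markers of other cells held no call by edgeR or DESeq2 and none with an unadjusted p under 0.05. The median log2 fold change was -0.27 for mast cells (5 of 6 tested, led by Kit), -0.23 for adipocytes (3 of 5, led by Cidec), 0.15 for erythrocytes (4 of 5, led by Hbb-bs) and 0.37 for Schwann cells (5 of 5, led by Cdh19). For the epicardium only 1 of 6 markers was tested, at -0.29.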
